A study of Mus musculus with 721 samples.

Results

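The inner cell mass at embryonic day (E) 3.5 was compared with the epiblast that has formed from it by E4.5. All 99 cells titled E3.5 were taken. Of the 105 cells titled E4.5, the 26 were taken in which the mean log2(CPM + 1) of the endoderm genes Dab2, Lama1, Lamb1, Lamc1, Cubn and Amn was not above that of the epiblast genes Sox2, Fgf4, Dnmt3b, Dnmt3l and Dppa4, where CPM is the counts of a gene per 1000000 counts of the cell. Slc7a3, the remaining gene of the rule, is X-linked and is not used here, because the rows analysed are those of chromosomes 1 to 19. These 125 of the 721 cells of the series were summed per embryo, with at least 3 cells a sum, which gave 10 sums at E3.5 and 5 at E4.5. Every embryo was wild type and of the strain C57Bl/6Babr. Blastocysts were flushed from the uterus at E3.5 and dissected from the early decidua at E4.5, the trophectoderm was lysed and removed from both by immunosurgery, and cells were picked by hand into lysis buffer.

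The E3.5 sums came from 5 embryos on plate P8 (16 cells), 4 embryos on plate P9 (74 cells) and 9 cells whose titles name several plates together and no embryo number, so that the last sum may hold more than 1 embryo. The E4.5 epiblast sums came from embryos 1 and 2 on plate P1 and embryos 3, 4 and 5 on plate P2, with 4 to 7 cells each. No plate held both stages, so plate and stage cannot be told apart. A cell had 187196 to 1442116 counts at E3.5 and 257813 to 1319770 in the E4.5 epiblast, with medians of 6258 and 6891 genes detected. Wells with a pair of cells made up 9 of the 99 cells and 7 of the 26. The E3.5 plates stood apart in some families, above all in cytosolic ribosomal proteins, which took 4.51 to 5.87% of counts on plate P8, 5.17% in the unnumbered cells and 7.56 to 8.41% on plate P9. Named genes that edgeR no longer called against 1 E3.5 plate alone, or with single cells only, are given at the end of each paragraph. Calls lost with 1 E4.5 plate alone, 60 with plate P1 and 38 with plate P2, are not named there. Otx2, Etv5 and Kdm2b were among those lost with either E4.5 plate.

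**Figure D1:**
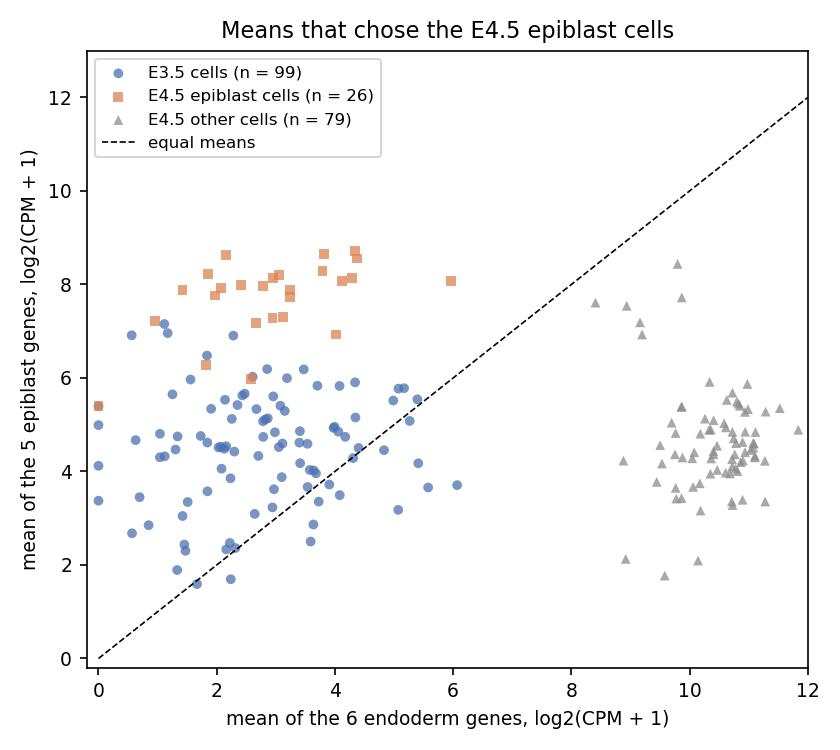
Each point is 1 cell, plotted by the mean log2(CPM + 1) of the 6 endoderm genes (x axis) and of the 5 epiblast genes (y axis) that chose the E4.5 epiblast cells. The 26 epiblast cells lie on or above the dashed line of equal means and the 79 other E4.5 cells below it. Most of these are far from the line, but a few have epiblast means of up to 8.44, within the 5.40 to 8.72 of the epiblast cells. The 99 E3.5 cells lie between low and intermediate values of both means.

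The values that chose the cells are given as a description only. The E4.5 cell just inside the limit had an epiblast mean 2.10 above its endoderm mean, and the cell just outside it a mean 0.797 below. The same limit is met by 85 of the 99 E3.5 cells. Sox2 had 142, 121, 129.8, 199.7 and 116 CPM in E4.5 embryos 1 to 5 and a median of 101 CPM at E3.5, and Fgf4 147, 84.4, 140.2, 158 and 204 CPM with a median of 71.3 CPM at E3.5. Dnmt3b had 452, 327, 319, 529.9 and 584 CPM at E4.5 and a median of 22 CPM at E3.5. These 3 genes mark the epiblast, and all were present in each of the 5 sums.

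Markers that the rule did not use were read in the same way. The 10 other epiblast markers with a row together made up 4605 to 5590 CPM in the E4.5 epiblast sums and 931 to 1398 CPM in the other E4.5 cells, and 3511 to 9238 CPM at E3.5. Of 20 primitive endoderm markers outside the rule, the sum was 2028 to 3915 CPM in the E4.5 epiblast, most of it Apoe, 12961 to 18559 CPM in the other E4.5 cells and 510 to 2168 CPM at E3.5. Of 25 trophectoderm markers, the sum was 1019 to 3958 CPM at E3.5 and 339 to 519 CPM in the E4.5 epiblast, where Cdx2, Hand1, Krt7, Krt8 and Krt19 had no count. Of 12 markers of maternal tissue and blood, the sum was 84.8 to 303 CPM at E3.5 and 2.99 to 74.1 CPM at E4.5, nearly all of it Pecam1, which the early embryo also expresses. The 26 cells thus carried epiblast markers beyond those of the rule, at summed levels within the E3.5 range. The sums of both stages held counts of markers of all 3 lineages.

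The inner cell mass of the blastocyst gives rise to both the epiblast, from which the body forms, and the primitive endoderm, which lines the blastocoel and feeds the yolk sac. Epiblast cells keep a naive pluripotent state around the time of implantation and then pass through a formative state before they can respond to the signals of gastrulation. Over these days the embryo also moves from the free life of the blastocyst, with its maternal stores, to implantation and rapid growth.

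Of 9890 genes tested, 555 rose and 838 fell from E3.5 to the E4.5 epiblast, where a call needs an adjusted p no higher than 0.05 and a log2 fold change beyond 1 in either direction. These are 5.61% and 8.47% of the genes tested, the shares against which the count of each list is read below. All 5 E4.5 sums lay above all 10 E3.5 sums for 5.86% of the genes tested and below them for 3.86%, and the stages thus did not overlap for 9.73%. The median log2 fold change over all genes was -0.09, and it was above 0 for 46.6% of them. Throughout, log2 fold changes are positive where a gene was higher in the E4.5 epiblast, ± gives the standard error, and E4.5 values are listed in the order of embryos 1 to 5. A level in CPM is not divided by gene length, so it is compared between stages and not between genes. A gene without a count in 1 stage passed the filter for low counts only through the other stage, so its direction was set in advance. Such genes include Lef1, Tdrd12, Podxl, Col18a1 and Fstl1 (no count at E3.5) and Krt8, Tfap2c, Cdh2 and Gm15622 (no count at E4.5). Genes with counts in only a few sums of 1 stage, or with very low counts there, also passed the filter through the other stage. They include Prdm14, Fgf10, Aqp3 and Yaf2 (low at E4.5) and Aire, Ifitm1, Cd81, Epha2, Rtl1, Igfbp2 and Smc1b (low at E3.5). The direction of genes of both kinds is given as a description, although they enter the counts of their lists. The plot of the share of genes called in each list shows where the calls gathered.

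**Figure D2:**
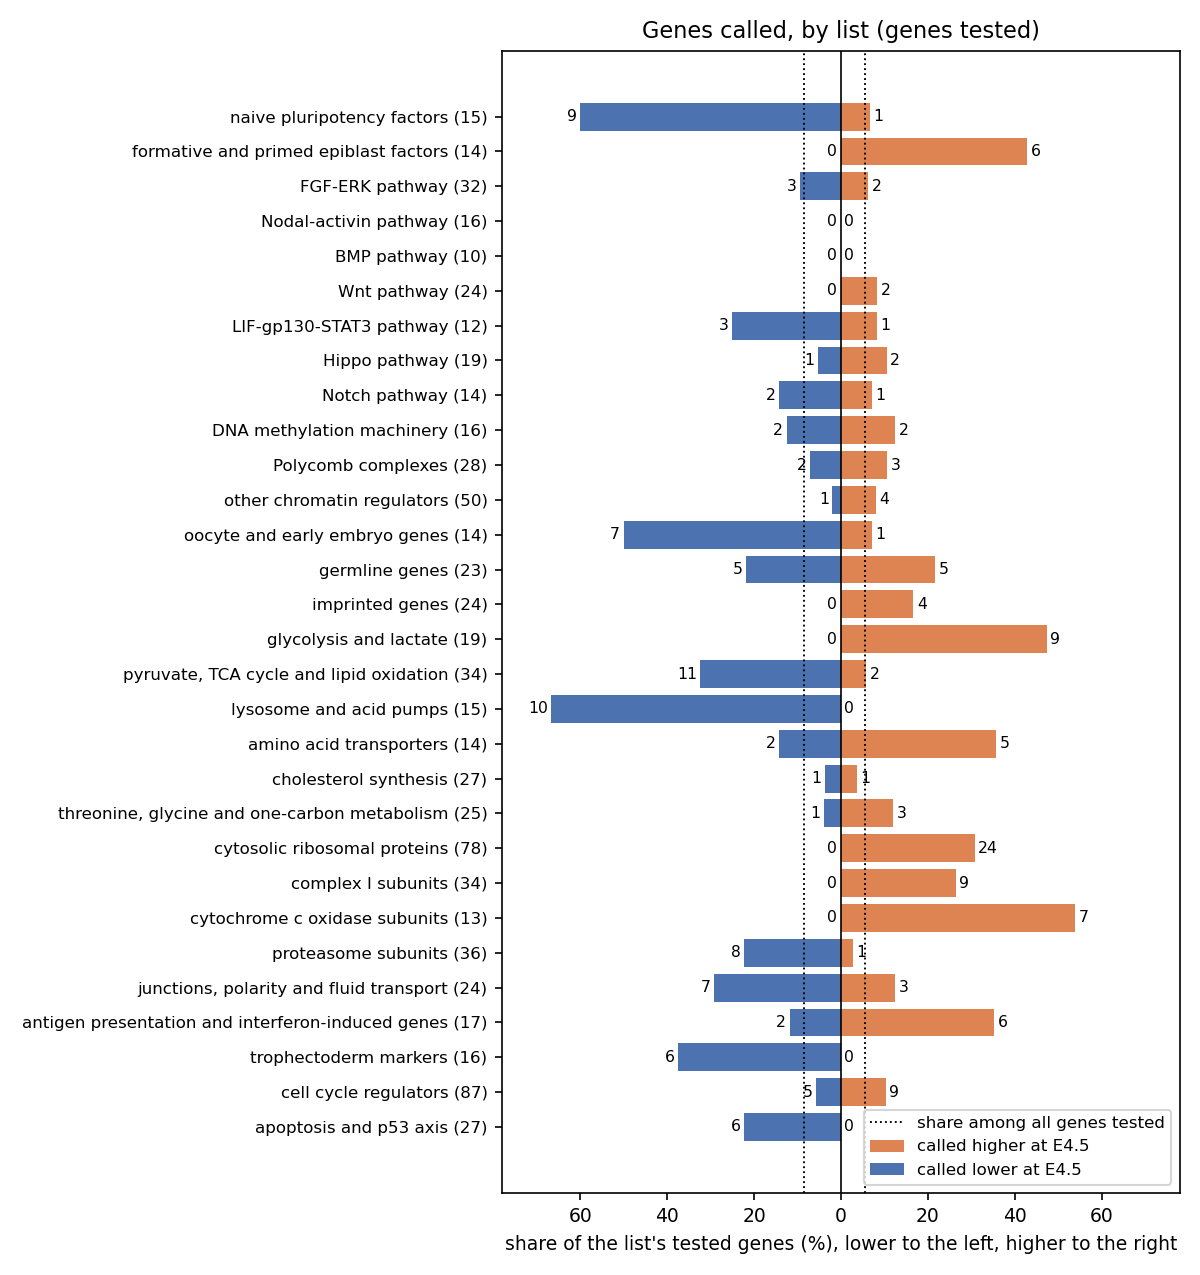
Bars give the share (%) of each list's tested genes (number in parentheses) that were called lower (blue, to the left) or higher (orange, to the right) in the E4.5 epiblast than at E3.5, with the number called beside each bar. Dotted lines mark 8.47% and 5.61%, the shares among all genes tested. Lysosomal, naive, oocyte and trophectoderm lists extend furthest to the left, and cytochrome c oxidase, glycolytic and formative lists furthest to the right.

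The naive pluripotency factors fell as a group, with 9 of 15 tested genes called lower, 1 called higher and a median log2 fold change of -1.73. Their summed share of counts was 0.287 to 0.418% at E3.5 and 0.124 to 0.174% at E4.5, so the groups do not overlap. Those called lower were Nanog, Klf2, Klf4, Klf5, Tfcp2l1, Tbx3, Zfp42, Prdm14 and Fbxo15. Tbx3, a T-box factor that sustains self-renewal, ranged from 74.7 to 307 CPM (median 173) at E3.5 and had 23.2, 32.3, 22.3, 29.4 and 12.8 CPM at E4.5 (log2 fold change -2.81 ± 0.39, edgeR adjusted p = 3.3e-05). Prdm14, a repressor that holds embryonic stem cells in the naive state, ranged from 10 to 130.2 CPM (median 29) at E3.5 and had 0, 0, 2.78, 0 and 0 CPM at E4.5 (log2 fold change -6.11 ± 1.29, edgeR adjusted p = 0.00225). For both genes every E4.5 sum lay below every E3.5 sum, and Prdm14 was left with counts in embryo 3 alone. Klf4, one of the reprogramming factors, ranged from 57.7 to 538 CPM (median 105) at E3.5 and had 44.8, 12, 74.1, 28.3 and 12.6 CPM at E4.5 (log2 fold change -2.22 ± 0.60, edgeR adjusted p = 0.014), and Nanog ranged from 35.5 to 724 CPM (median 293) and had 103, 113, 137, 91.1 and 31.2 CPM (log2 fold change -1.73 ± 0.52, edgeR adjusted p = 0.0259). The sums of the stages overlap for both. The call of Nanog was lost without E4.5 embryo 1, 4 or 5 (edgeR adjusted p = 0.0523 to 0.0725). The edgeR call was lost on leaving out 1 sum for Klf2 (without E4.5 embryo 2, 4 or 5, adjusted p = 0.0517 to 0.0572). No count was left in the lower stage for Prdm14 without E4.5 embryo 3. A call by edgeR was lost with plate P8 alone at E3.5 for Nanog (adjusted p = 0.238), with plate P9 alone at E3.5 for Klf4 (adjusted p = 0.0896) and for Klf2 (log2 fold change -0.93, inside the limit of 1) and with single cells only for Nanog, Klf2 and Klf4 (adjusted p = 0.072 to 0.127).

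Not every naive factor moved this way. Gbx2, a homeobox factor downstream of LIF signalling, ranged from 0 to 16.1 CPM (median 1.41) at E3.5 and had 36.7, 39.5, 78.3, 31.7 and 56.3 CPM at E4.5, where all sums lay above those at E3.5 (log2 fold change 3.64 ± 1.13, edgeR adjusted p = 0.032). The call of Gbx2 was lost without E3.5 embryo 7 or 8, or E4.5 embryo 1, 2, 3 or 5 (edgeR adjusted p = 0.0517 to 0.0817). Esrrb, an orphan nuclear receptor of the naive network, ranged from 20.4 to 113 CPM (median 70.1) at E3.5 and had 129, 76, 115, 56.3 and 158 CPM at E4.5, with overlapping sums and no call (log2 fold change 0.61 ± 0.39, edgeR adjusted p = 0.353). Among the core factors, which are shared by naive and primed states, none of 6 tested genes was called by edgeR, at a median of 0.59, with 2 at an unadjusted p under 0.05 and 1 by DESeq2. Pou5f1 had 2259, 1696, 1526, 1021 and 1648 CPM at E4.5 against 1341 to 2380.0 CPM (median 1948) at E3.5 (log2 fold change -0.18 ± 0.18, edgeR adjusted p = 0.581), so its difference lay within the spread of the sums. Calls by edgeR were lost with plate P8 alone at E3.5 for Gbx2 (adjusted p = 0.142) and with single cells only for Gbx2 (adjusted p = 0.0992).

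Formative and primed epiblast factors rose, with 6 of 14 tested genes called higher, none lower and a median of 2.42. They took 0.00967 to 0.0282% of counts at E3.5 and 0.0689 to 0.125% at E4.5. Those called were Otx2, Sox4, Grhl2, Lef1, Etv4 and Etv5. Otx2, which directs enhancer use in the formative state, ranged from 0 to 30.4 CPM (median 3.99) at E3.5 and had 165, 120.3, 91.5, 98.4 and 99 CPM at E4.5 (log2 fold change 3.98 ± 0.96, edgeR adjusted p = 0.00637). Lef1, a transcription factor that carries Wnt signals to DNA, had no count in any of the 10 E3.5 sums and 100.3, 103, 74.4, 28.9 and 138 CPM at E4.5, a level at least 1746-fold higher (with the E3.5 sums set at 3 counts in all, edgeR adjusted p = 1.09e-05). Both genes parted the stages in all sums. Pou3f1, a marker of the post-implantation epiblast, ranged from 0 to 11.2 CPM (median 0) at E3.5 and had 27.4, 43.7, 1.04, 4.3 and 15 CPM at E4.5, with overlapping sums and no call (log2 fold change 3.72 ± 1.51, edgeR adjusted p = 0.108). Without E3.5 embryo 3, which held the highest E3.5 value, Pou3f1 was called (log2 fold change 5.59, edgeR adjusted p = 0.0106). Fgf5, a ligand of the later epiblast, was too low for the test, with no count at E3.5 and 0 to 75.6 CPM at E4.5. With 1 sum left out, edgeR no longer called Sox4 (without any 1 of 14 of the 15 sums, adjusted p = 0.0548 to 0.0966). The log2 fold change moved on leaving out 1 sum for Otx2 to 4.60 (without E3.5 embryo 7). In edgeR the call did not hold with plate P8 alone at E3.5 for Sox4 (adjusted p = 0.178) and with plate P9 alone at E3.5 for Grhl2 (adjusted p = 0.0614).

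The FGF-ERK pathway carries the signal of FGF4, which epiblast precursors make and endoderm precursors need. Of 32 tested genes, 2 rose and 3 fell (6.25% and 9.38%), close to the shares among all genes. The 14 feedback inhibitors and targets had a median of 1.55, and the pair that rose, Etv4 and Etv5, are ETS transcription factors induced by FGF. Etv5 ranged from 4.62 to 111 CPM (median 69.4) at E3.5 and had 197, 308, 295, 178 and 171 CPM at E4.5 (log2 fold change 1.72 ± 0.43, edgeR adjusted p = 0.00808), and Etv4 ranged from 0 to 5.59 CPM (median 0) and had 81.8, 106, 146, 54.9 and 34.8 CPM (log2 fold change 6.65 ± 1.12, edgeR adjusted p = 0.000271). In both cases the stages do not overlap. Dusp6, a phosphatase that switches ERK off, ranged from 0 to 37.1 CPM (median 6.07) at E3.5 and had 75.3, 56.9, 88.4, 73 and 57.7 CPM at E4.5, but its adjusted p missed the limit (log2 fold change 2.64 ± 0.93, edgeR adjusted p = 0.0596). Dusp6 was called without E3.5 embryo 1, 3 or 9, or the unnumbered E3.5 cells (edgeR adjusted p = 0.036 to 0.0498). Spry2, another feedback inhibitor, ranged widely from 50.7 to 3487 CPM (median 376) at E3.5 and had 72.9, 236, 152, 173 and 269 CPM at E4.5 (log2 fold change -1.90 ± 0.71, edgeR adjusted p = 0.0758). Spry2 was called without the unnumbered E3.5 cells (edgeR adjusted p = 0.0361). Without 1 sum, the log2 fold change moved for Etv4 to 7.67 (without E3.5 embryo 3).

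On the upstream side of the pathway, Fgf10 was the only ligand outside the rule with enough counts to be tested. It ranged from 11.2 to 468 CPM (median 97.3) at E3.5 and had 0, 0, 0, 2.33 and 0 CPM at E4.5, below every E3.5 sum (log2 fold change -7.69 ± 1.16, edgeR adjusted p = 9.34e-05). Its mean in the other E4.5 cells was 69.3 CPM. Fgfr2, the receptor of endoderm precursors, ranged from 0 to 67.9 CPM (median 20.6) at E3.5 and had 7.72, 1.2, 9.74, 2.87 and 7.85 CPM at E4.5 (log2 fold change -2.24 ± 1.04, edgeR adjusted p = 0.167). Fgfr1, which epiblast precursors use as well, ranged from 37.5 to 248 CPM (median 78.8) and had 88, 52.1, 57.7, 36.6 and 66.4 CPM (log2 fold change -0.71 ± 0.42, edgeR adjusted p = 0.3). Neither receptor was called, and both overlap between the stages. Of 15 transducers, Ptpn11 and Map2k2 fell. By edgeR, leaving out 1 sum ended the call of Ptpn11 (without any 1 of 8 of the 15 sums, adjusted p = 0.0549 to 0.105) and Map2k2 (without any 1 of 11 of the 15 sums, adjusted p = 0.0522 to 0.106). No count was left in the lower stage for Fgf10 without E4.5 embryo 4. EdgeR lost the call with plate P8 alone at E3.5 for Ptpn11 (adjusted p = 0.0969), with plate P9 alone at E3.5 for Map2k2 (log2 fold change -0.87, inside the limit of 1) and with single cells only for Ptpn11 and Map2k2 (adjusted p = 0.141 to 0.163).

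The Nodal and BMP branches of TGF-beta signalling, which later pattern the embryo, held no called gene among 16 and 10 tested, with medians of 0.19 and 0.16. By unadjusted p under 0.05 in edgeR, 1 of the 16 and 0 of the 10 passed, and DESeq2 called 1 and 0. Tdgf1, the co-receptor of Nodal, ranged from 471 to 1842 CPM (median 1067) at E3.5 and had 1156, 1541, 954, 1556 and 1221 CPM at E4.5 (log2 fold change 0.18 ± 0.25, edgeR adjusted p = 0.714). Gdf3, a ligand of the same receptors, ranged from 77.7 to 381 CPM (median 249) and had 445, 320.2, 258, 282 and 326 CPM (log2 fold change 0.35 ± 0.28, edgeR adjusted p = 0.482). The E4.5 levels of Tdgf1 lay within the range of the E3.5 sums. Those of Gdf3 overlapped that range, with embryo 1 above every E3.5 sum. Nodal itself was too low for the test, with no count in any E3.5 sum and 1.16 to 45.5 CPM in the 5 E4.5 sums. Its inhibitor Lefty2 also had no count at E3.5 and 0 to 398 CPM at E4.5.

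LIF signals through gp130 and STAT3 to uphold naive pluripotency. Of 12 tested genes of this pathway 1 rose and 3 fell, against 5.61% and 8.47% of all genes. Stat3, the transcription factor of the pathway, ranged from 39.2 to 210.0 CPM (median 144) at E3.5 and had 25.5, 14.4, 24.7, 3.59 and 57.7 CPM at E4.5 (log2 fold change -2.56 ± 0.53, edgeR adjusted p = 0.00182). Socs3, its target and feedback inhibitor, ranged from 64.7 to 411 CPM (median 224) and had 0.772, 0, 10.1, 1.43 and 86 CPM (log2 fold change -3.44 ± 0.94, edgeR adjusted p = 0.016). The 4 lower E4.5 sums of Socs3 were far below every E3.5 sum, and embryo 5 lay within the E3.5 range. Lifr, the receptor of LIF, went the other way, from 0 to 85.6 CPM (median 21.2) at E3.5 and 149, 72.4, 41.7, 381 and 155 CPM at E4.5 (log2 fold change 2.48 ± 0.80, edgeR adjusted p = 0.0387). The call of Lifr was lost without E3.5 embryo 3, 4, 5 or 6, or the unnumbered E3.5 cells, or E4.5 embryo 1, 4 or 5 (edgeR adjusted p = 0.0534 to 0.192). Il6st, which encodes gp130, ranged from 0.277 to 35.3 CPM (median 7.03) at E3.5, had 2.32, 20.3, 65.4, 72.1 and 34.3 CPM at E4.5 and was not called (log2 fold change 1.87 ± 1.01, edgeR adjusted p = 0.246). The third gene that fell was Bcl3. The edgeR call was lost on leaving out 1 sum for Bcl3 (without any 1 of 11 of the 15 sums, adjusted p = 0.0564 to 0.102). Leaving out 1 sum moved the log2 fold change of Socs3 to -6.09 (without E4.5 embryo 5) and Lifr to 1.87 (without E4.5 embryo 4). A call by edgeR was lost with plate P8 alone at E3.5 for Socs3 and Bcl3 (adjusted p = 0.105 to 0.202), with plate P9 alone at E3.5 for Lifr (adjusted p = 0.0799) and with single cells only for Lifr and Bcl3 (adjusted p = 0.0629 to 0.0921).

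In the Wnt pathway 2 of 24 tested genes rose and none fell. Besides Lef1 this was the receptor Fzd7, which ranged from 0 to 13.9 CPM (median 1.77) at E3.5 and had 25.1, 52.1, 10.1, 10.9 and 45.8 CPM at E4.5 (log2 fold change 3.14 ± 1.04, edgeR adjusted p = 0.0454). The call of Fzd7 was lost without E3.5 embryo 1, 4, 6, 7, 8 or 9, or E4.5 embryo 1, 2, 3, 4 or 5 (edgeR adjusted p = 0.0535 to 0.123). Ctnnb1, which encodes beta-catenin, ranged from 36 to 387 CPM (median 118) and had 167, 195, 332, 336 and 264 CPM (log2 fold change 0.82 ± 0.38, edgeR adjusted p = 0.166). Ctnnb1 was called without E3.5 embryo 1 (edgeR adjusted p = 0.0252). In the Hippo pathway, whose effectors mark outer cells of the blastocyst, Amotl2 and the kinase gene Stk4 rose and the effector Wwtr1 fell among 19 genes. Amotl2, which holds YAP at junctions, ranged from 0 to 2.42 CPM (median 0) at E3.5 and had 61.4, 6.58, 29.6, 23.5 and 63.7 CPM at E4.5, with no overlap (log2 fold change 5.84 ± 1.22, edgeR adjusted p = 0.00204). In the Notch pathway 1 of 14 genes rose, Rbpj, the DNA-binding factor of Notch, which ranged from 18.3 to 113 CPM (median 51.3) and had 164, 193, 145, 199 and 175 CPM (log2 fold change 1.57 ± 0.38, edgeR adjusted p = 0.00623), while Hes1 and Numb fell. With 1 sum left out, edgeR no longer called Stk4 (without any 1 of 8 of the 15 sums, adjusted p = 0.0504 to 0.119), Hes1 (without E3.5 embryo 4, or E4.5 embryo 1, 2 or 5, adjusted p = 0.0576 to 0.0798) and Numb (without any 1 of 6 of the 15 sums, adjusted p = 0.0523 to 0.0833). The log2 fold change moved on leaving out 1 sum for Fzd7 to 3.78 (without E3.5 embryo 5). Calls by edgeR were lost with plate P8 alone at E3.5 for Fzd7, Stk4 and Wwtr1 (adjusted p = 0.0645 to 0.205), with plate P9 alone at E3.5 for Stk4, Hes1 and Numb (adjusted p = 0.107 to 0.539) and with single cells only for Fzd7, Stk4, Hes1 and Numb (adjusted p = 0.0535 to 0.122).

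Among growth factor and mTOR genes 1 of 31 rose and 1 fell. Igfbp2, a secreted protein that binds insulin-like growth factors, was absent from 7 of the 10 E3.5 sums, reached 9.14 CPM in the highest of them and had 1121, 909, 736, 529 and 1149 CPM at E4.5 (log2 fold change 8.94 ± 0.96, edgeR adjusted p = 1.93e-06). Rheb, the GTPase that switches mTOR complex 1 on, ranged from 137 to 425 CPM (median 259) at E3.5 and had 115, 106, 92.5, 82.5 and 63.7 CPM at E4.5 (log2 fold change -1.60 ± 0.29, edgeR adjusted p = 0.00055). For both genes the stages do not overlap. In the other E4.5 cells the mean was 34.6 CPM for Igfbp2 and 157 CPM for Rheb. Without 1 sum, the log2 fold change moved for Igfbp2 to 10.34 (without E3.5 embryo 6).

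**Figure D3:**
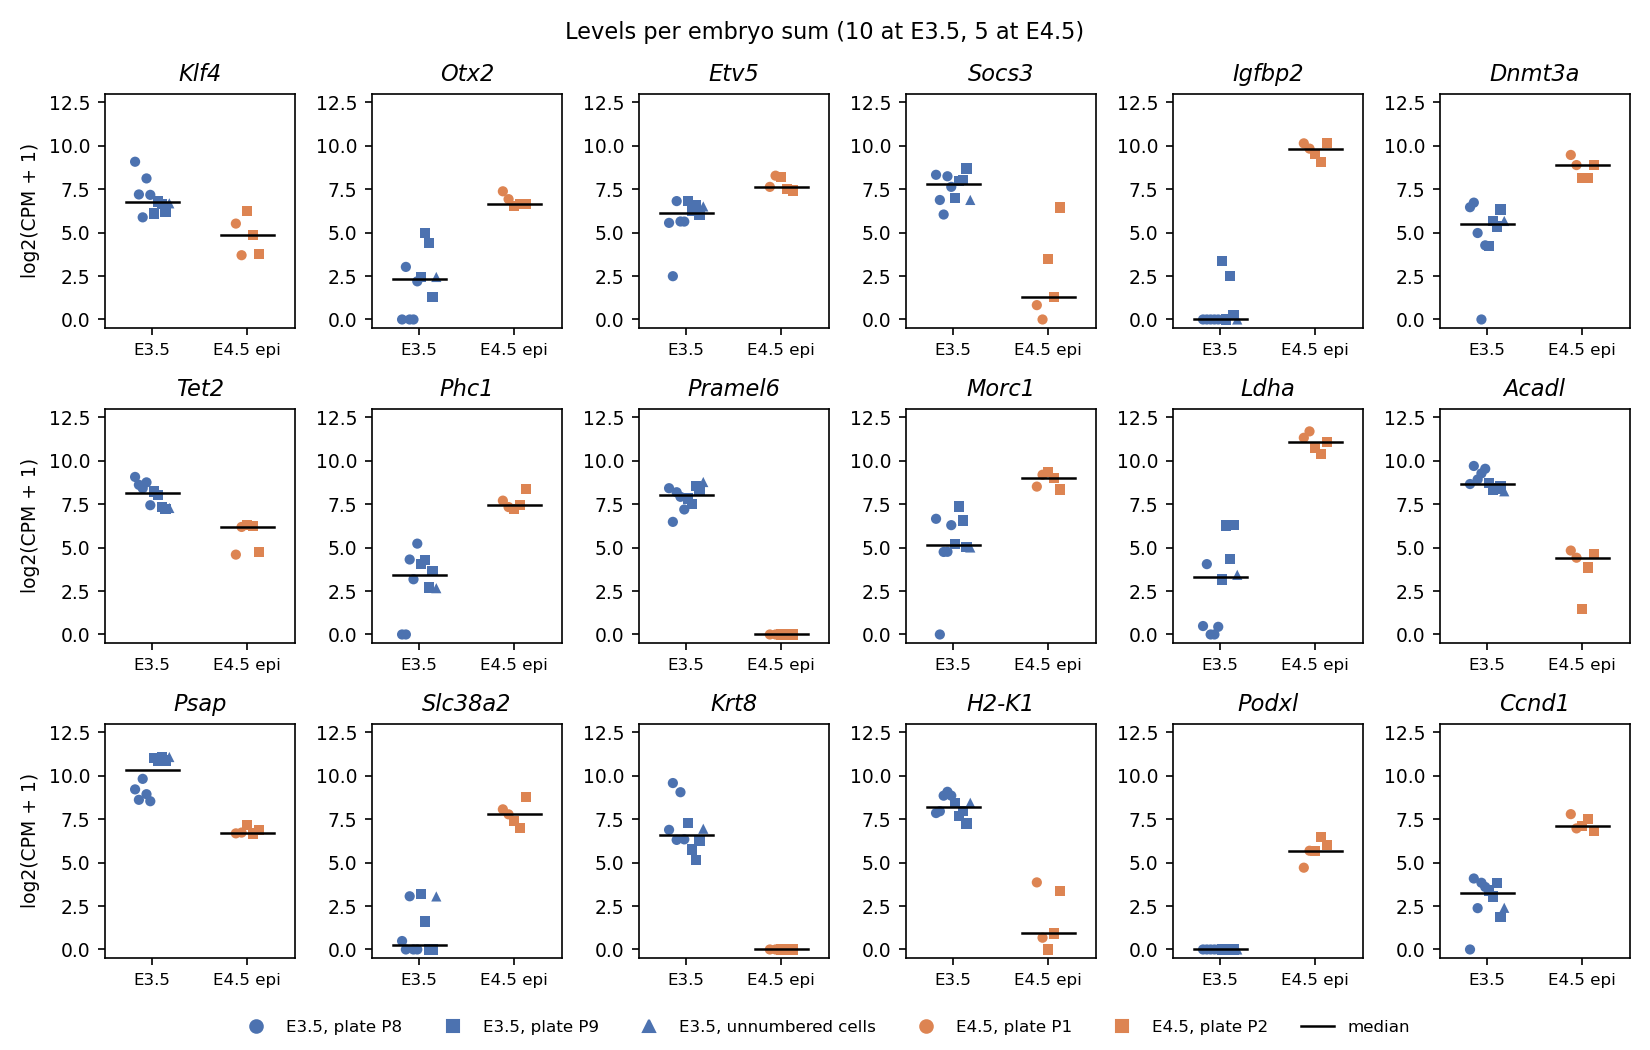
Levels of 18 named genes as log2(CPM + 1), with 1 point for each embryo sum (10 at E3.5 in blue, 5 at E4.5 in orange), marker shapes for the plates and a black line at the median. The stages lie apart for Otx2, Etv5, Igfbp2, Dnmt3a, Tet2, Phc1, Pramel6, Morc1, Ldha, Acadl, Psap, Slc38a2, Krt8, H2-K1, Podxl and Ccnd1, and overlap for Klf4 and Socs3, and Psap is higher on plate P9 than on plate P8.

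The genome of the blastocyst carries little DNA methylation, and it is methylated again around implantation by the enzymes DNMT3A and DNMT3B with the cofactor DNMT3L. Of 16 tested genes of DNA methylation outside the rule, 2 rose and 2 fell. The list, which here includes 2 genes of the rule, took 0.609 to 0.851% of counts at E3.5 and 0.411 to 0.471% at E4.5, lower without overlap. Dppa3, given next, made up much of that share at E3.5. The log2 fold change was above 0 for 12 of the 16 tested genes, with a median of 0.49. Dppa3, which shields the maternal genome from demethylation in the zygote, ranged from 3934 to 6748 CPM (median 4939) at E3.5 and had 214, 225, 293, 526 and 94.7 CPM at E4.5 (log2 fold change -4.23 ± 0.33, edgeR adjusted p = 7.01e-08). Dnmt3a ranged from 0 to 105 CPM (median 44.7) at E3.5 and had 706, 471, 280.4, 282 and 476 CPM at E4.5 (log2 fold change 3.22 ± 0.61, edgeR adjusted p = 0.000835). Hells, a remodeller that gives the methyltransferases access to DNA, ranged from 103 to 230.4 CPM (median 167) and had 580.0, 464, 592, 705 and 834 CPM (log2 fold change 1.94 ± 0.22, edgeR adjusted p = 4.62e-06). Every E4.5 sum of Dnmt3a and Hells lay above every E3.5 sum, and every E4.5 sum of Dppa3 lay below. Of the oxidases that remove the mark, Tet2 fell, from a range of 148 to 534 CPM (median 279) to 23.2, 71.8, 77.6, 74.9 and 26 CPM (log2 fold change -2.40 ± 0.42, edgeR adjusted p = 0.00036), whereas Tet1 had 377, 314, 459.9, 495 and 429 CPM at E4.5 against 71.3 to 372 CPM (median 215) at E3.5, a difference under the limit of 1 on the log2 scale (log2 fold change 0.86 ± 0.28, edgeR adjusted p = 0.0439). Of the maintenance pair, Dnmt1 ranged from 5.82 to 76.4 CPM (median 38.6) at E3.5 and had 69.9, 52.1, 82.8, 195 and 64.6 CPM at E4.5 (log2 fold change 1.26 ± 0.48, edgeR adjusted p = 0.0828), and Uhrf1 ranged from 47.4 to 522 CPM (median 299) and had 356, 381, 408, 456 and 191 CPM (log2 fold change 0.24 ± 0.37, edgeR adjusted p = 0.749). Neither was called. Dnmt1 was called without E3.5 embryo 2 (edgeR adjusted p = 0.0478).

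Polycomb complexes keep developmental genes silent, PRC2 by methylating histone H3 and PRC1 by ubiquitinating histone H2A. Of 20 tested PRC1 genes 3 rose and 1 fell, with a median of 0.88, and of 8 PRC2 genes none rose and 1 fell, with a median of -0.15. Phc1, a polyhomeotic subunit that compacts chromatin, ranged from 0 to 36.5 CPM (median 9.81) at E3.5 and had 207, 159.8, 146, 172 and 329.7 CPM at E4.5 (log2 fold change 4.08 ± 0.73, edgeR adjusted p = 0.000509). Kdm2b, which brings a variant PRC1 to CpG islands, ranged from 0 to 55.5 CPM (median 19.6) and had 196, 140.1, 149.6, 95.7 and 129 CPM (log2 fold change 2.69 ± 0.68, edgeR adjusted p = 0.00935). Aebp2, a PRC2 accessory subunit, ranged from 64.3 to 264 CPM (median 117) at E3.5 and had 30.1, 49.1, 17, 23.7 and 60.4 CPM at E4.5 (log2 fold change -1.87 ± 0.43, edgeR adjusted p = 0.00475). All 3 genes parted the stages in every sum. The catalytic subunit Ezh2 ranged from 132 to 600.4 CPM (median 353), had 179, 172, 237, 307 and 243 CPM and was not called (log2 fold change -0.66 ± 0.30, edgeR adjusted p = 0.162). Rnf2, the ubiquitin ligase of PRC1, was the third to rise, and Yaf2 the one to fall. Of 50 other chromatin regulators 4 rose and 1 fell. Kdm5b, a demethylase of histone H3 lysine 4, ranged from 31.1 to 166 CPM (median 118) at E3.5 and had 325, 288, 449, 261 and 381 CPM at E4.5 (log2 fold change 1.55 ± 0.29, edgeR adjusted p = 0.000742). By edgeR, leaving out 1 sum ended the call of Rnf2 (without E4.5 embryo 4 or 5, adjusted p = 0.0707 to 0.0779) and Yaf2 (without any 1 of 5 of the 15 sums, adjusted p = 0.0547 to 0.0766). In edgeR the call did not hold with plate P8 alone at E3.5 for Rnf2 (adjusted p = 0.152) and with single cells only for Rnf2 (adjusted p = 0.208).

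Of 51 genes of the oocyte and the cleavage embryo with a row, 14 had enough counts to be tested, and 7 of these fell and 1 rose. Of 5 tested genes of the subcortical maternal complex 1 rose and 1 fell, with a median of 2.26, and the only other oocyte gene tested was not called. Of 23 cleavage-stage genes with a row 8 were tested and 6 of them fell, each without a count at E4.5. Genes at 0 in the epiblast could enter the test only through a high level at E3.5, so that their direction was set by the count filter and is given as a description. These 6 include Pramel4, Pramel5, Pramel6 and Pramel7, genes of 1 repeated family whose counts are uncertain where reads could be shared among its copies. Pramel6 ranged from 88.2 to 436 CPM (median 265) at E3.5 and had no count in any E4.5 epiblast sum, at least 1510.5-fold lower (with the E4.5 sums set at 3 counts in all, edgeR adjusted p = 6.47e-08). The gene was thus present in all 10 E3.5 sums and in none of the 5 at E4.5. Ooep, a member of the subcortical maternal complex of the egg, did the opposite. It ranged from 0 to 46.8 CPM (median 24) at E3.5 and had 278, 183, 253, 316 and 303 CPM at E4.5 (log2 fold change 3.42 ± 0.64, edgeR adjusted p = 0.00071), above every E3.5 sum.

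Ooep belongs to the KH-domain family that also holds Dppa5a and Khdc1a, and the members parted. Dppa5a ranged from 2443 to 7174 CPM (median 4652) at E3.5 and had 12318, 14093, 9873, 14392 and 11879 CPM at E4.5 (log2 fold change 1.45 ± 0.21, edgeR adjusted p = 7.07e-05), while Khdc1a ranged from 38.9 to 165 CPM (median 92.5) and had 17.8, 0.599, 0, 12.7 and 0 CPM (log2 fold change -4.03 ± 0.96, edgeR adjusted p = 0.00613). Near-identical copies of both genes exist, so their levels are uncertain. Dppa2, which readies developmental genes for activation, ranged from 676 to 1387 CPM (median 823) at E3.5 and had 103, 135, 84.9, 187 and 112 CPM at E4.5, with no overlap (log2 fold change -2.92 ± 0.26, edgeR adjusted p = 2.58e-07). Leaving out 1 sum moved the log2 fold change of Khdc1a to -4.85 (without E4.5 embryo 1). EdgeR lost the call with plate P9 alone at E3.5 for Dppa5a (log2 fold change 0.98, inside the limit of 1).

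Germline genes moved in both directions, with 5 of 23 tested genes higher and 5 lower. Of the 20 tested genes of genome defence and meiosis 5 rose and 3 fell, and of the 3 tested germ cell regulators none rose and 2 fell. Tdrd12, a Tudor protein of the piRNA pathway, had no count in any E3.5 sum and 57.9, 69.4, 63, 62.7 and 154 CPM at E4.5, at least 1599-fold higher (with the E3.5 sums set at 3 counts in all, edgeR adjusted p = 1.14e-05). Smc1b, the meiotic cohesin subunit, was at 0 to 1.4 CPM at E3.5 and 25.5, 91, 47.3, 81.2 and 191 CPM at E4.5 (log2 fold change 9.17 ± 1.06, edgeR adjusted p = 4.62e-06). Morc1, which silences transposons in germ cells, ranged from 0 to 163 CPM (median 34) at E3.5 and had 363, 582, 659.9, 516 and 323 CPM at E4.5 (log2 fold change 3.06 ± 0.61, edgeR adjusted p = 0.00127). In all 3 genes the E4.5 sums lay above those at E3.5, and in the other E4.5 cells their means were 8.63, 7.41 and 23.8 CPM. Dazl, an RNA-binding protein of germ cells, ranged from 0 to 90.8 CPM (median 0.363) at E3.5 and had 126, 171, 99.5, 0 and 3.82 CPM at E4.5 (log2 fold change 2.70 ± 1.51, edgeR adjusted p = 0.264). It was high in embryos 1 to 3 and at or near 0 in embryos 4 and 5. Rpl10l, a copy of a ribosomal protein gene made in the testis, rose as well, but its reads could come from the parent gene and are uncertain. The log2 fold change moved on leaving out 1 sum for Smc1b to 10.57 (without E3.5 embryo 3).

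Glycolysis and lactate genes rose, with 9 of 19 tested genes called higher, none lower and a median of 1.91. Their summed share of counts was 0.112 to 0.253% at E3.5 and 0.681 to 1.19% at E4.5, and the E3.5 sums of each plate lay below every E4.5 sum. Those called were Slc16a3, Hk2, Pfkp, Aldoa, Tpi1, Gapdh, Eno1, Pkm and Ldha. Ldha, the lactate dehydrogenase subunit that turns pyruvate to lactate, ranged from 0 to 76.8 CPM (median 8.88) at E3.5 and had 2547, 3288, 1720.3, 1319 and 2149.9 CPM at E4.5 (log2 fold change 6.70 ± 0.96, edgeR adjusted p = 5.6e-05). Slc16a3, which carries lactate out of the cell, was at 0 to 3.15 CPM at E3.5 and 263, 260.4, 252, 116 and 179 CPM at E4.5 (log2 fold change 8.35 ± 0.91, edgeR adjusted p = 2.47e-06). Each of these genes was higher in all 5 E4.5 sums, and on plate P8 at E3.5 Ldha was at or under 15.5 CPM in all 5 embryos. Pfkp, a form of the enzyme that commits glucose to glycolysis, ranged from 0 to 41.9 CPM (median 21.4) and had 198, 241, 248, 216 and 466 CPM (log2 fold change 3.88 ± 0.84, edgeR adjusted p = 0.00267). Pkm, pyruvate kinase, ranged from 55.7 to 710.0 CPM (median 355) and had 1557, 1644, 1531, 1844 and 1758 CPM (log2 fold change 2.28 ± 0.40, edgeR adjusted p = 0.000447). Hk2, the hexokinase of growing cells, ranged from 25.6 to 158 CPM (median 57.8) and had 142, 153, 363, 245 and 371 CPM (log2 fold change 1.91 ± 0.35, edgeR adjusted p = 0.000678), with embryos 1 and 2 within the E3.5 range. Slc2a1, the main glucose transporter of the embryo, ranged from 33.6 to 168 CPM (median 94.4), had 136, 132, 194, 166 and 71.8 CPM and was not called (log2 fold change 0.54 ± 0.37, edgeR adjusted p = 0.379). Pdk1, a kinase that keeps pyruvate out of the mitochondrion, ranged from 0 to 8.82 CPM (median 1.53) at E3.5 and had 52.9, 95.2, 69.2, 42.8 and 63.7 CPM at E4.5, with no overlap (log2 fold change 4.39 ± 1.06, edgeR adjusted p = 0.00673). The edgeR call was lost on leaving out 1 sum for Gapdh (without E4.5 embryo 3, adjusted p = 0.0562). A call by edgeR was lost with plate P9 alone at E3.5 for Gapdh (log2 fold change 0.75, inside the limit of 1).

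The promoters of Ldha and Hk2 are shown because they carry ACGTG, the core of the motif that hypoxia-inducible factors bind and that is well known in glycolytic genes. Each line gives the 250 bases before the gene's RefSeq start in the build GRCm38.p6, 5′ to 3′ on the gene's own strand, at chr7:46845554-46845803 (plus strand, Ldha) and chr6:82774455-82774704 (minus strand, Hk2). No annotated exon lies in either stretch, and capitals mark ACGTG on either strand, including places where it lies within CACGTG.
Ldha: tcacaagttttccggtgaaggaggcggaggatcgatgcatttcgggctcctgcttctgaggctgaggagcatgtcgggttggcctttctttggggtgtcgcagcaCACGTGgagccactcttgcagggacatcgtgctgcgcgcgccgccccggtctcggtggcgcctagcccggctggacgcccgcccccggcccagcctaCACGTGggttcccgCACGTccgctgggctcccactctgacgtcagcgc
Hk2: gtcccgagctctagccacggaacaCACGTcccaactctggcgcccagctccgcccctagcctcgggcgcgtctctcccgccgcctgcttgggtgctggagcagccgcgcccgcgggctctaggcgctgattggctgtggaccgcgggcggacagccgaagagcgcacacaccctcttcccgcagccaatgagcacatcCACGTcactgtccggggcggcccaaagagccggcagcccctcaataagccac
Ldha holds 3 such runs and Hk2 2. In the 250 bases before the start, ACGTG was present in 5 of the 9 glycolytic genes called higher (Aldoa, Hk2, Ldha, Pkm and Slc16a3). The same held for 6 of the 9 not called, 26.6% of 6867 tested genes with a promoter and 18.5% of all 27025 genes with a promoter. A gene with several starts was counted if any of them had the motif. The motif was thus as common in the glycolytic genes that were not called. It is a match of letters and no measure of binding.

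Genes of lipid oxidation went down. Of 14 tested genes 9 fell and none rose, with a median of -2.04, whereas of 20 genes of pyruvate handling and the TCA cycle 2 rose and 2 fell. Acadl, the long-chain acyl-CoA dehydrogenase of fatty acid oxidation, ranged from 301 to 827 CPM (median 409.8) at E3.5 and had 27.4, 20.3, 1.74, 13.4 and 23.6 CPM at E4.5 (log2 fold change -4.80 ± 0.50, edgeR adjusted p = 1.41e-06). Plin2, which coats lipid droplets, ranged from 236 to 966 CPM (median 418) and had 19.7, 34.7, 21.6, 18.5 and 34.3 CPM (log2 fold change -4.25 ± 0.38, edgeR adjusted p = 3.19e-07). All 5 E4.5 sums of both lay below the lowest E3.5 sum, and the fitted levels were 27.9-fold lower for Acadl and 19-fold lower for Plin2. The carnitine shuttle gene Cpt1a, the very-long-chain enzyme Acadvl and the nuclear receptor Esrra, which drives this programme, were among the 9. With 1 sum left out, edgeR no longer called Cpt1a (without any 1 of 11 of the 15 sums, adjusted p = 0.0535 to 0.105), Acadvl (without E4.5 embryo 3, 4 or 5, adjusted p = 0.0619 to 0.0666) and Esrra (without E4.5 embryo 2 or 3, adjusted p = 0.0562). Calls by edgeR were lost with plate P8 alone at E3.5 for Cpt1a and Acadvl (adjusted p = 0.151 to 0.211), with plate P9 alone at E3.5 for Cpt1a and Esrra (adjusted p = 0.0889 to 0.119) and with single cells only for Cpt1a (adjusted p = 0.104).

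**Figure D4:**
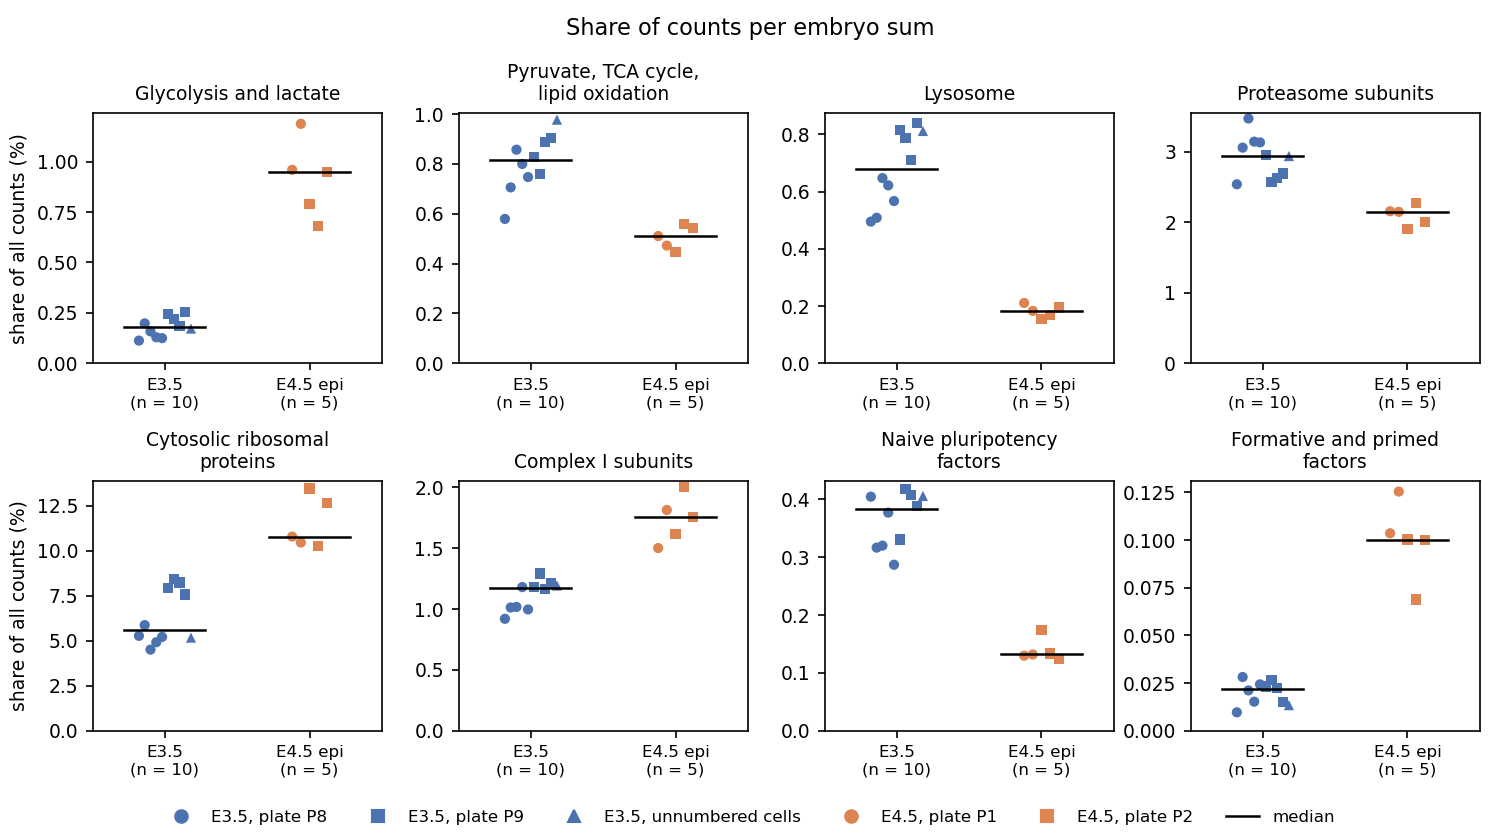
Share of all counts (%, axes from 0) taken by 8 gene lists in each embryo sum, with blue points for the 10 sums at E3.5, orange for the 5 at E4.5, marker shapes for the plates and a black line at the median. The stages do not overlap in any of the 8 lists, and lysosomal and cytosolic ribosomal shares are higher on plate P9 than on plate P8.

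Genes of the lysosome fell. Of 15 tested genes 10 were called lower and none higher, with a median of -1.81, and their share of counts was 0.495 to 0.84% at E3.5 and 0.155 to 0.211% at E4.5. Psap, the precursor of the saposins that help to break down sphingolipids, ranged from 368 to 2151 CPM (median 1386) at E3.5 and had 101, 105, 140.2, 101 and 115 CPM at E4.5 (log2 fold change -3.51 ± 0.49, edgeR adjusted p = 3.71e-05). Hexa, a subunit of hexosaminidase, ranged from 207 to 558 CPM (median 339) and had 72.2, 8.98, 20.2, 17.4 and 46.5 CPM (log2 fold change -3.44 ± 0.43, edgeR adjusted p = 1.34e-05). Lamp1, an abundant protein of the lysosomal membrane chosen after its values were seen, ranged from 358 to 851 CPM (median 573) and had 287, 70.6, 170.5, 127 and 196 CPM (log2 fold change -1.82 ± 0.29, edgeR adjusted p = 0.000134). The stages do not overlap for any of the 3. On plate P8 the list took 0.495 to 0.647% of counts and on plate P9 0.71 to 0.84%, and against either plate alone it held 7 and 10 lower calls. With all E4.5 cells in place of the epiblast, it held 3 higher and 4 lower calls and a median of -0.45. In the other E4.5 cells the mean of Hexa was 267 CPM, near its level at E3.5, and that of Psap 109 CPM, near that of the E4.5 epiblast.

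The promoter of Lamp1 is shown because it carries CACGTG 4 times, the E-box that is part of the motif shared by many lysosomal genes. The 250 bases before its RefSeq start are at chr8:13158911-13159160 (GRCm38.p6, plus strand), hold no annotated exon, and have CACGTG in capitals. It was chosen for print after its sequence was seen. By edgeR, leaving out 1 sum ended the call of Ctsl (without any 1 of 5 of the 15 sums, adjusted p = 0.0541 to 0.0904). In edgeR the call did not hold with plate P8 alone at E3.5 for Ctsa and Ctsl (adjusted p = 0.0592 to 0.0786).
Lamp1: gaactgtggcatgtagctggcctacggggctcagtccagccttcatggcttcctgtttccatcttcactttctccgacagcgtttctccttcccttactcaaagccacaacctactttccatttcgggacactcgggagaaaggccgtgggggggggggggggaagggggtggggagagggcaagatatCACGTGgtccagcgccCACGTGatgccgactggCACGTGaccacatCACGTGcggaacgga
CACGTG reads the same on both strands and contains ACGTG. In the 250 bases before the start, it was present in 4 of 9 lysosomal genes called lower that had a promoter (Ctsa, Ctsd, Ctsl and Lamp1). The same held for 1 of 3 not called, 10.7% of the tested genes and 6.86% of all genes with a promoter.

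Amino acid transport and threonine use rose in part. Of 14 tested amino acid transporters 5 rose and 2 fell, with a median of 1.05. Slc38a2, which imports small neutral amino acids, was at 0 to 8.24 CPM at E3.5 and 266, 218, 165, 125 and 439 CPM at E4.5 (log2 fold change 6.51 ± 1.01, edgeR adjusted p = 0.000113). Slc7a7, the light chain of a cationic amino acid exchanger, was at 0 to 10 CPM and 213, 185, 94.6, 118 and 241 CPM (log2 fold change 5.82 ± 1.04, edgeR adjusted p = 0.000489). Both were higher in every E4.5 sum, and both were as high in the other E4.5 cells, at means of 387 and 182 CPM. Slc7a5, the leucine carrier, ranged from 0.89 to 48.4 CPM (median 9.98) at E3.5 and had 42.1, 64.6, 58.4, 129 and 111 CPM at E4.5 (log2 fold change 2.53 ± 0.75, edgeR adjusted p = 0.0259). The call of Slc7a5 was lost without E4.5 embryo 4 or 5 (edgeR adjusted p = 0.069 to 0.0799). Slc7a1 and Slc6a6 rose, and Slc7a6 and Slc1a1 fell. Of 25 genes of threonine, glycine and one-carbon metabolism 3 rose and 1 fell. Tdh, threonine dehydrogenase, on which mouse embryonic stem cells depend, ranged from 37.7 to 417 CPM (median 194) and had 628, 437, 485, 630.2 and 497 CPM (log2 fold change 1.31 ± 0.41, edgeR adjusted p = 0.0334), and Gcat, the next enzyme of that route, ranged from 0 to 74.2 CPM (median 55.6) and had 129, 179.6, 156, 265 and 244 CPM (log2 fold change 2.08 ± 0.62, edgeR adjusted p = 0.0258). The stages do not overlap for either gene. The call of Tdh was lost without E3.5 embryo 6, 7 or 8, or E4.5 embryo 1, 3, 4 or 5 (edgeR adjusted p = 0.0561 to 0.0777). The call of Gcat was lost without E4.5 embryo 4 or 5 (edgeR adjusted p = 0.0653 to 0.0705). Phgdh, the first enzyme of serine synthesis, ranged from 146 to 465 CPM (median 251) and had 104, 95.2, 19.5, 36.4 and 218 CPM (log2 fold change -1.56 ± 0.45, edgeR adjusted p = 0.021). The call of Phgdh was lost without E4.5 embryo 4 (edgeR adjusted p = 0.0597). The edgeR call was lost on leaving out 1 sum for Slc7a1 (without E4.5 embryo 1 or 3, adjusted p = 0.0562 to 0.0626) and Slc6a6 (without any 1 of 6 of the 15 sums, adjusted p = 0.0546 to 0.125). EdgeR lost the call with plate P8 alone at E3.5 for Gcat, Tdh, Phgdh and Slc6a6 (adjusted p = 0.0511 to 0.189), with plate P9 alone at E3.5 for Phgdh and Slc7a1 (adjusted p = 0.0776 to 0.187) and with single cells only for Gcat, Slc7a5 and Slc7a1 (adjusted p = 0.0605 to 0.108).

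Cholesterol synthesis held few calls. Of 27 tested genes 1 rose, Sqle, and 1 fell, Acat2, with a median of 0.03. Sqle, squalene epoxidase, ranged from 0 to 85.1 CPM (median 31.4) at E3.5 and had 102, 147, 188, 151 and 96 CPM at E4.5 (log2 fold change 2.0 ± 0.64, edgeR adjusted p = 0.0364). The call of Sqle was lost without E3.5 embryo 7, 8 or 9, or the unnumbered E3.5 cells, or E4.5 embryo 1, 2, 3, 4 or 5 (edgeR adjusted p = 0.0513 to 0.0954). With 1 sum left out, edgeR no longer called Acat2 (without any 1 of 8 of the 15 sums, adjusted p = 0.0534 to 0.108). A call by edgeR was lost with plate P8 alone at E3.5 for Sqle and Acat2 (adjusted p = 0.0825 to 0.191), with plate P9 alone at E3.5 for Acat2 (adjusted p = 0.298) and with single cells only for Acat2 (adjusted p = 0.0642).

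Subunits of the respiratory chain were called upwards more than downwards. Of 34 complex I subunits 9 rose, none fell and 25 were not called (median 0.46), and of 13 cytochrome c oxidase subunits 7 rose and none fell (median 1.02). Over the settings in which lists were counted, 3 to 12 complex I subunits rose, with medians of 0.28 to 0.57. For cytochrome c oxidase 2 to 9 rose, with medians of 0.62 to 1.21. Ndufs4, an accessory subunit of complex I, ranged from 45.7 to 242 CPM (median 146) at E3.5 and had 362, 433, 521, 601 and 607 CPM at E4.5 (log2 fold change 1.78 ± 0.31, edgeR adjusted p = 0.000429). Cox6c, a subunit of the terminal oxidase, ranged from 491 to 1085 CPM (median 796) and had 1449.9, 1934, 2629.7, 2076 and 3029 CPM (log2 fold change 1.45 ± 0.20, edgeR adjusted p = 3.03e-05). All E4.5 sums of both lay above those at E3.5. Complex I as a whole took 0.919 to 1.29% of counts at E3.5 and 1.5 to 2% at E4.5. Of 17 ATP synthase subunits 2 rose, 1 fell and 14 were not called.

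Of 78 cytosolic ribosomal protein genes 24 rose and none fell, with a median of 0.84, and the sums of the stages were apart upwards for 49 of them. Their share was 4.51 to 8.41% at E3.5 and 10.3 to 13.4% at E4.5. Against plate P8 alone 44 rose and 1 fell, and against plate P9 alone 5 rose and none fell, with a median of 0.48. Rpl22l1, a paralogue of Rpl22, ranged from 85.3 to 378 CPM (median 191) at E3.5 and had 638, 429.7, 865, 858 and 1203 CPM at E4.5, with no overlap (log2 fold change 1.84 ± 0.31, edgeR adjusted p = 0.000309). Genes of this family have many processed copies in the genome, so single members are uncertain. The 76 mitochondrial ribosomal proteins split evenly, with 3 higher, 3 lower and a median of 0.04, and none of 27 genes of translation and ribosome biogenesis was called by edgeR (5 at an unadjusted p under 0.05), while DESeq2 called 1.

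The proteasome moved against the ribosome. Of 36 tested subunits 8 fell and 1 rose, with a median of -0.55, and their share was 2.54 to 3.47% at E3.5 and 1.91 to 2.27% at E4.5. Psmd11, a lid subunit, ranged from 476 to 995 CPM (median 676) at E3.5 and had 273, 172, 187, 183 and 206 CPM at E4.5 (log2 fold change -1.76 ± 0.21, edgeR adjusted p = 6.04e-06). The one that rose was Psmb10, a catalytic subunit of the immunoproteasome, which ranged from 0 to 28.6 CPM (median 14.5) and had 188, 233, 172, 103 and 226 CPM (log2 fold change 3.76 ± 0.76, edgeR adjusted p = 0.00156). Both genes parted the stages.

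Psmb10 belongs to antigen presentation, where the interferon-induced genes and the class I genes parted. Of 9 interferon-induced genes 5 rose and none fell (Ifitm1, Ifitm2, Ifitm3, Bst2 and Irf1). Ifitm1, a membrane protein known from early germ cells, was at 0 in all but 1 E3.5 sum, which had 0.778 CPM, and had 122, 151, 33, 67.9 and 121 CPM at E4.5 (log2 fold change 9.34 ± 1.0, edgeR adjusted p = 2.02e-06). Bst2, which tethers viruses to the membrane, ranged from 0 to 17.7 CPM (median 5.52) and had 156, 65.2, 151, 43.7 and 139 CPM (log2 fold change 4.21 ± 0.92, edgeR adjusted p = 0.00299). The E4.5 sums of both lay above those at E3.5. H2-K1, a class I heavy chain, fell, from a range of 151 to 537 CPM (median 293) to 13.5, 0.599, 0, 0.896 and 9.2 CPM (log2 fold change -6.03 ± 0.77, edgeR adjusted p = 1.55e-05), and H2-D1, another, from a range of 33.8 to 560.5 CPM (median 165) to 22, 0, 1.04, 1.43 and 12.8 CPM (log2 fold change -4.84 ± 0.95, edgeR adjusted p = 0.00113). The class I genes resemble each other closely, as do the Ifitm genes, so their members are uncertain. B2m, the light chain, was at 0 to 15.3 CPM at E3.5 and 0 to 6.58 CPM at E4.5 and was not called (log2 fold change -1.13 ± 1.64, edgeR adjusted p = 0.729). By edgeR, leaving out 1 sum ended the call of Ifitm3 (without any 1 of 5 of the 15 sums, adjusted p = 0.0503 to 0.098) and Irf1 (without E4.5 embryo 1, adjusted p = 0.0629). Without 1 sum, the log2 fold change moved for H2-K1 to -6.79 (without E4.5 embryo 1) and H2-D1 to -5.72 (without E4.5 embryo 1). No count was left in the lower stage for Ifitm1 without E3.5 embryo 6. Calls by edgeR were lost with plate P9 alone at E3.5 for Irf1 (adjusted p = 0.0944) and with single cells only for Ifitm3 (adjusted p = 0.0651).

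Markers of primitive endoderm fell in the epiblast, with 5 of 14 tested genes lower and 2 higher. The E4.5 cells had been chosen against endoderm genes and the E3.5 cells had not, so the direction is in part set by that choice and is no independent result. Gata6, which endoderm precursors require, ranged from 103 to 428 CPM (median 234) at E3.5, had 0, 0, 7.65, 4.84 and 0 CPM in the E4.5 epiblast and a mean of 177 CPM in the other E4.5 cells. It was thus present in all 10 E3.5 sums. In sums of cells, fewer cells with a transcript and less of it per cell cannot be told apart. Apoe, an apolipoprotein, was placed among endoderm markers but ranged from 26.2 to 516 CPM (median 199) at E3.5 and had 3313, 2748, 1738, 1428 and 3120.0 CPM in the E4.5 epiblast and a mean of 2114 CPM in the other E4.5 cells. The epiblast sums thus lay on both sides of the mean of the cells that carry endoderm markers.

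Epithelial genes of the blastocyst wall fell. Of 16 tested trophectoderm markers 6 fell and none rose (median -1.85), and of 24 genes of junctions, polarity and fluid transport 7 fell and 3 rose. Krt8, a keratin of the trophectoderm, ranged from 34.3 to 761 CPM (median 98.3) at E3.5 and had no count in any E4.5 epiblast sum, at least 1147-fold lower (with the E4.5 sums set at 3 counts in all, edgeR adjusted p = 2.24e-05). Tfap2c, a transcription factor shared by trophectoderm and germ cells, ranged from 62.5 to 259 CPM (median 109) and likewise had no count at E4.5, at least 733-fold lower (edgeR adjusted p = 4.79e-07). Both were present in every E3.5 sum, and their direction was set by the count filter. Of the 16 tested markers, 3 had no count in 1 stage. Aqp3, a water and glycerol channel, ranged from 170.1 to 713 CPM (median 306) at E3.5 and had 0, 0, 25, 0 and 0 CPM at E4.5 (log2 fold change -6.16 ± 1.12, edgeR adjusted p = 0.000574), and Cldn7, a claudin of tight junctions, ranged from 87 to 1079 CPM (median 242) and had 33.2, 10.2, 11.1, 54.1 and 9.65 CPM (log2 fold change -3.88 ± 0.69, edgeR adjusted p = 0.000434). Neither overlaps between the stages. The summed trophectoderm markers, which include Krt8 and Tfap2c, took 1019 to 3958 CPM at E3.5 and 339 to 519 CPM at E4.5. At E3.5 no count was found for Dlx3, Ascl2 and Krt19. The part of remaining trophectoderm in these differences was not tested. No count was left in the lower stage for Aqp3 without E4.5 embryo 3.

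Among other adhesion genes, Cdh1, the cadherin of the epiblast epithelium, ranged from 44 to 199.8 CPM (median 137) at E3.5, had 131, 143, 73.8, 147 and 84.2 CPM at E4.5 and was not called (log2 fold change -0.18 ± 0.34, edgeR adjusted p = 0.797). Epcam, an adhesion molecule of epithelia, fell with overlapping sums, from 307 to 1018 CPM (median 703) at E3.5 and 455, 210.1, 219, 159 and 302 CPM at E4.5 (log2 fold change -1.38 ± 0.31, edgeR adjusted p = 0.00358). Cdh2, the neural cadherin, ranged from 3.36 to 37.9 CPM (median 10.7) at E3.5 and had no count at E4.5, at least 78.2-fold lower (with the E4.5 sums set at 3 counts in all, edgeR adjusted p = 0.000496). None of 11 integrins and ligands was called by edgeR, and 3 passed an unadjusted p of 0.05 and 1 the test of DESeq2. In edgeR the call did not hold with plate P9 alone at E3.5 for Epcam (adjusted p = 0.0813).

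Some genes of the apical surface and the basement membrane were higher, within lists that moved in both directions. Podxl, a sialomucin of the apical surface that lines the lumen of the later epiblast, had no count in any E3.5 sum and 25.1, 50.3, 50.4, 86.8 and 62.6 CPM at E4.5, at least 1081-fold higher (with the E3.5 sums set at 3 counts in all, edgeR adjusted p = 4.07e-05). Slc9a3r1, the scaffold that binds it to ezrin, ranged from 0 to 19 CPM (median 1.46) and had 105, 71.2, 175, 67.2 and 91.3 CPM (log2 fold change 4.72 ± 0.98, edgeR adjusted p = 0.00197). Both were also present in the other E4.5 cells, at means of 108 and 278 CPM. Of 9 tested laminins, collagens and their partners outside the rule 4 rose, 1 fell and 4 were not called. Col18a1, a collagen of basement membranes, had no count at E3.5 and 69.9, 168, 39.7, 22.2 and 104 CPM at E4.5, at least 1584-fold higher (edgeR adjusted p = 2.3e-05), and a mean of 6.56 CPM in the other E4.5 cells. Nid2, which links laminin to collagen, ranged from 0 to 15 CPM (median 1.01) at E3.5 and had 145, 289, 104, 143 and 64.4 CPM at E4.5 (log2 fold change 5.63 ± 0.99, edgeR adjusted p = 0.000403). Hspg2 and Agrn, both proteoglycans, completed the 4. Epha2, a receptor of ephrins, was at 0 to 2.28 CPM at E3.5 and 70.2, 37.1, 64.7, 25.6 and 75 CPM at E4.5 (log2 fold change 7.51 ± 1.28, edgeR adjusted p = 0.000307). All these genes were higher in every E4.5 sum. The edgeR call was lost on leaving out 1 sum for Hspg2 (without E4.5 embryo 4, adjusted p = 0.0532). Leaving out 1 sum moved the log2 fold change of Slc9a3r1 to 5.56 (without the unnumbered E3.5 cells) and Nid2 to 6.49 (without E3.5 embryo 4). No count was left in the lower stage for Epha2 without E3.5 embryo 9.

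The let-7 axis, through which LIN28 keeps a family of differentiation miRNAs low, held 3 higher genes and 1 lower among 11 tested. Lin28a ranged from 0 to 30.2 CPM (median 7.98) at E3.5 and had 251, 169, 194, 126 and 165 CPM at E4.5 (log2 fold change 3.90 ± 0.77, edgeR adjusted p = 0.00117). Trim71, a repressor of mRNAs that is itself a let-7 target, ranged from 4.63 to 47.3 CPM (median 26.1) and had 68.3, 193, 94.6, 70.1 and 217 CPM (log2 fold change 2.37 ± 0.49, edgeR adjusted p = 0.00172). The chromatin proteins Hmga1 and Hmga2 parted, since Hmga1 had 331, 229, 189.6, 137 and 237 CPM against 1.2 to 64.5 CPM (median 32) at E3.5 (log2 fold change 2.66 ± 0.48, edgeR adjusted p = 0.000576), whereas Hmga2 had 64.4, 23.3, 31, 86.6 and 69.3 CPM against 208 to 1045 CPM (median 278) (log2 fold change -3.10 ± 0.49, edgeR adjusted p = 0.000128). All 4 genes separated the stages in every sum. None of 8 tested Myc family genes was called by edgeR, and 1 passed an unadjusted p of 0.05 and 1 the test of DESeq2.

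Cell cycle genes are given by the phase they act in. Of 19 tested G1 cyclins, their kinases and inhibitors 6 rose and 2 fell, while of 34 replication genes 2 rose and 2 fell and of 34 mitosis genes 1 rose and 1 fell. Ccnd1, cyclin D1, ranged from 0 to 16 CPM (median 8.4) at E3.5 and had 219.6, 124, 137, 181 and 111 CPM at E4.5 (log2 fold change 4.25 ± 0.61, edgeR adjusted p = 5.41e-05), and Ccnd3, cyclin D3, ranged from 501 to 1349 CPM (median 573) and had 399.8, 315, 324, 243 and 123 CPM (log2 fold change -1.24 ± 0.28, edgeR adjusted p = 0.00381). Both D cyclins parted the stages, in opposite directions. E2f8, a repressor of the cycle genes, ranged from 0 to 12.2 CPM (median 0.787) and had 108, 29.9, 52.2, 27.1 and 19.7 CPM (log2 fold change 4.46 ± 1.17, edgeR adjusted p = 0.0116). The call of E2f8 was lost without E4.5 embryo 1 (edgeR adjusted p = 0.054). Cdkn1a, the p21 inhibitor, varied widely from 4.76 to 774 CPM (median 44.8) at E3.5, had 25.5, 0, 7.31, 0 and 32.3 CPM at E4.5 and was not called (log2 fold change -3.29 ± 1.27, edgeR adjusted p = 0.0891). The log2 fold change moved on leaving out 1 sum for E2f8 to 5.42 (without E3.5 embryo 2). EdgeR lost the call with plate P8 alone at E3.5 for E2f8 (adjusted p = 0.105).

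Of 27 tested genes of apoptosis and the p53 axis 6 fell and none rose, with a median of -1.21. Casp6, an executioner caspase, ranged from 194 to 376 CPM (median 313) at E3.5 and had 10.4, 2.99, 6.26, 5.38 and 22 CPM at E4.5 (log2 fold change -4.96 ± 0.43, edgeR adjusted p = 2.58e-07). Pmaip1, the BH3-only protein Noxa, ranged from 36.9 to 156 CPM (median 81.9) and had 25.1, 16.8, 6.26, 15.6 and 15.5 CPM (log2 fold change -2.37 ± 0.49, edgeR adjusted p = 0.00178). For both genes the E4.5 sums lay below the lowest E3.5 sum. Bok, Bad and Apaf1 fell as well. Trp53 itself ranged from 51.1 to 170.1 CPM (median 117) at E3.5, had 213, 113, 273, 162 and 129 CPM at E4.5 and was not called (log2 fold change 0.64 ± 0.33, edgeR adjusted p = 0.217). With 1 sum left out, edgeR no longer called Apaf1 (without any 1 of 5 of the 15 sums, adjusted p = 0.063 to 0.0759). Without 1 sum, the log2 fold change moved for Casp6 to -5.56 (without E4.5 embryo 5). A call by edgeR was lost with plate P9 alone at E3.5 for Bok and Apaf1 (adjusted p = 0.145 to 0.16) and with single cells only for Bok and Apaf1 (adjusted p = 0.0506 to 0.0727).

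Imprinted genes, which are expressed from 1 parental copy, held 4 higher and no lower calls among 24 tested, with a median of 1.0. Peg3, a paternally expressed zinc finger gene, ranged from 0 to 62.9 CPM (median 7.93) at E3.5 and had 350.4, 122, 263, 364 and 376 CPM at E4.5 (log2 fold change 4.26 ± 0.80, edgeR adjusted p = 0.000744). Phlda2, a maternally expressed gene that restrains placental growth, was at 0 to 1.88 CPM at E3.5 and 63.3, 245, 35.5, 50.9 and 79.4 CPM at E4.5 (log2 fold change 7.57 ± 1.05, edgeR adjusted p = 3.73e-05). Cd81, a tetraspanin, was at 0 in 9 E3.5 sums and at 26.9 CPM in embryo 4, with 174, 196, 69.9, 170.1 and 172 CPM at E4.5 (log2 fold change 5.88 ± 1.44, edgeR adjusted p = 0.00718). The E4.5 sums lay above those at E3.5 in all 3 genes, and Rtl1 was the other that rose. The counts do not tell the parental copies apart. Leaving out 1 sum moved the log2 fold change of Peg3 to 4.85 (without E3.5 embryo 4), Phlda2 to 8.20 (without E3.5 embryo 6) and Phlda2 to 6.92 (without E4.5 embryo 2). No count was left in the lower stage for Cd81 without E3.5 embryo 4. Calls by edgeR were lost with plate P9 alone at E3.5 for Rtl1 (adjusted p = 0.105) and with single cells only for Rtl1 (adjusted p = 0.0552).

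Rab18, a small GTPase that acts on lipid droplets, ranged from 200.3 to 544 CPM (median 297) at E3.5 and had 75.6, 90.4, 106, 119 and 75.6 CPM at E4.5 (log2 fold change -1.79 ± 0.27, edgeR adjusted p = 8.17e-05). Among gene families, 4 of 10 Kruppel-like factors fell and none rose, and of 4 T-box genes 3 fell. Of 149 solute carriers 8 rose and 22 fell. None of 38 histone cluster genes was called by edgeR, with 2 at an unadjusted p under 0.05 and 1 called by DESeq2, and none of 7 chaperonin subunits, with 1 at an unadjusted p under 0.05 and 0 called by DESeq2.

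Of all genes with at least 20 CPM on average in 1 stage, several went from or to 0. Fstl1, a secreted glycoprotein, had no count in any of the 10 E3.5 sums and 97.3, 154, 101, 80.8 and 242 CPM at E4.5, at least 2651-fold higher (with the E3.5 sums set at 3 counts in all, edgeR adjusted p = 2.07e-06). Its mean in the other E4.5 cells was 104 CPM. Aire, the regulator best known for the display of tissue antigens in the thymus, had 2 counts in all E3.5 sums together and 3775 in the E4.5 epiblast, with 341, 322, 217, 106 and 256 CPM (ratio of pooled CPM 6475, 95% counting interval 1791 to 53490, edgeR adjusted p = 2.79e-11). In the other E4.5 cells its mean was 7.65 CPM. These genes were thus present in all 5 epiblast sums and at or near 0 before. Gm15622, a gene model without an established role, ranged from 28 to 513 CPM (median 182) at E3.5 and had no count in any E4.5 sum, at least 1408-fold lower (edgeR adjusted p = 1.02e-06). The direction of Fstl1, Aire and Gm15622 was set by the count filter, so the adjusted p of these genes is no independent result. The counting interval covers counting error only. The counts carry no strand, so a gene and one that overlaps it on the other strand cannot be told apart.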

How the data were processed

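Single-cell RNA-seq was made from hand-picked cells of E3.5 and E4.5 blastocysts. The authors trimmed reads with Trim Galore, mapped them with HISAT2 to GRCm38 (versions 0.4.3 and 2.0.5 in the submitters' processing notes, while the study's methods name other versions of both) and deposited raw counts per gene from SeqMonk, for reads mapped at a quality of 20 or more and for cells with at least 4000 genes and under 10% mitochondrial reads. Only genes of chromosomes 1 to 19 were analysed here, and 517 columns of other cells were not used. Reads carry no molecular identifiers.

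Counts were summed per embryo, which is the replicate, and tested with edgeR 4.0.16 (R 4.3.3, TMM factors, filterByExpr, quasi-likelihood test, Benjamini-Hochberg adjustment over all 9890 genes tested). A call needed an adjusted p no higher than 0.05 and a log2 fold change beyond 1 in either direction. Levels are TMM-scaled counts per 1000000 counts (CPM). Tests of the genes that chose the cells were not read. The members and all gene lists were chosen with earlier results of these data known. The genes named were the marked genes of each list, in each list the 2 that rose most and the 2 that fell most among called genes whose stages do not overlap, and the 5 of each kind among all genes at 20 CPM or more. Genes named to make up a count were named after their values were seen. On simulated data with 200 genes changed 8-fold, 99 were recovered and 3 others called. The alternatives were DESeq2 1.42.0, other size factors, filters, cells, plates, thinned counts, left-out sums and an embryo number block.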

Additional observations from a re-analysis of the deposited data

Results flagged for a closer look

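In each stage, the highest and the lowest sum of every named gene outside the rule for epiblast cells were set against the others by Dixon's test. The test used log2(CPM + 1), in 312 groups of 5 or 10 sums. A sum stood apart from the others of its stage in 38 groups. The test flags about 1 in 20 by chance only for normal values, so the 38 are not read against that rate. A group with counts in 1 sum only, such as Prdm14 at E4.5, has a ratio of 1 whatever its level. The 38 are given as values of 1 sum in CPM, with no explanation. E3.5 embryo 1 stood lowest, with 0 CPM for Sqle, 1.2 CPM for Hmga1, 28 CPM for Gm15622 and 36 CPM for Wwtr1. E3.5 embryo 2 stood lowest, with 4.62 CPM for Etv5, 77.7 CPM for Gdf3 and 0 CPM for Morc1. E3.5 embryo 3 stood lowest, with 39.2 CPM for Stat3 and 71.3 CPM for Tet1. E3.5 embryo 4 stood lowest, with 0 CPM for Dnmt3a, 0 CPM for Gcat, 19.4 CPM for Rpl10l, 5.82 CPM for Dnmt1, 47.4 CPM for Uhrf1 and 18.3 CPM for Slc1a1. E3.5 embryo 5 stood lowest, with 29.3 CPM for Pramel7. E3.5 embryo 9 stood lowest, with 31.1 CPM for Kdm5b. The unnumbered E3.5 cells stood lowest, with 192 CPM for Klf5 and 22.1 CPM for Gapdh. E3.5 embryo 3 stood highest, with 5.59 CPM for Etv4, 1.4 CPM for Smc1b and 11.2 CPM for Pou3f1. E3.5 embryo 4 stood highest, with 26.9 CPM for Cd81 and 1349 CPM for Ccnd3. E3.5 embryo 5 stood highest, with 6.79 CPM for Sox4. E3.5 embryo 6 stood highest, with 0.778 CPM for Ifitm1. E3.5 embryo 8 stood highest, with 5.00 CPM for Rtl1. E3.5 embryo 9 stood highest, with 2.28 CPM for Epha2. E4.5 embryo 3 stood lowest, with 1.74 CPM for Acadl and 69.9 CPM for Cd81. E4.5 embryo 5 stood lowest, with 31.2 CPM for Nanog and 191 CPM for Uhrf1. E4.5 embryo 1 stood highest, with 0.772 CPM for Yaf2. E4.5 embryo 3 stood highest, with 2.78 CPM for Prdm14 and 25 CPM for Aqp3. E4.5 embryo 4 stood highest, with 2.33 CPM for Fgf10. E4.5 embryo 5 stood highest, with 154 CPM for Tdrd12 and 466 CPM for Pfkp.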

How the results depend on the processing

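The counts of genes called higher and lower (555 and 838) kept within 1.5 times under RLE factors, library totals, single cells only, other minimum cells per sum, a wider gap in the choice of cells, the rule applied at E3.5, thinning, plate P9 alone and without the unnumbered cells. DESeq2 called 1103 higher and, with no low-count filter, edgeR called 1793 higher. A test against a log2 fold change of 1 (glmTreat) left 237 higher and 446 lower. With plate P8 alone at E3.5, 513 were lower. With plate P1 alone at E4.5, 309 were higher and 354 lower, and with plate P2 alone 492 were lower. With the other E4.5 cells as a separate group in the fit, 887 were higher. Leaving out 1 sum gave 441 to 576 higher and 687 to 909 lower. The cause of these shifts was not tested, beyond fewer sums in the fits by plate.

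The embryos of the stages share numbers only, and the deviations of same-numbered sums correlated at -0.0375 to 0.0209. With the embryo number as a replicate block on plate P8 and all E4.5 embryos, 403 genes were lower, and without the block on these embryos, chosen after seeing the data, 513 were lower.

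With all E4.5 cells in place of the epiblast, most of them on the endoderm side of the rule, 42 named genes lost their call and the log2 fold change turned for Tdh (-0.19), Tdgf1 (-1.72), Gdf3 (-1.49), Yaf2 (0.46), Ctsl (1.76) and Slc7a6 (0.45). No other alternative turned a named gene that was called in either fit. Calls of named genes were lost for 3 under DESeq2 (Cd81, Map2k2 and Slc7a1), 3 under RLE factors, 23 with single cells only (7 of the 26 epiblast wells held a pair), 23 with sums of at least 5 cells, 26 under the embryo block (Stat3 among them), 22 with plate P8 alone, 21 with plate P9 alone, 60 with plate P1 alone, 38 with plate P2 alone and 48 under glmTreat. The smallest sums, of 3 to 7 cells, limit low genes, where a value of 0 is a sum without a count.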
